A study of Mus musculus with 8 samples.

Results

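The 34 genes described here are markers and regulators of stratified squamous epithelium and of its basal layer, and they were chosen by name among the 27179 genes counted in whole mouse uteri. They fall into 3 classes by role. The basal class has 10 genes (*Krt5*, *Krt14*, *Krt15*, *Krt17*, *Trp63*, *Itgb4*, *Fat2*, *Dsg3*, *Dsc3* and *Serpinb5*), and the junction class has 7 (*Dsc2*, *Pkp1*, *Pkp3*, *Jup*, *Perp*, *Sfn* and *Lgals7*). The differentiation class has 17 (*Krt1*, *Krt4*, *Krt6a*, *Krt6b*, *Krt10*, *Krt13*, *Krt16*, *Dsg1a*, *Grhl3*, *Zfp750*, *Ovol1*, *Ivl*, *Sprr1a*, *Sprr3*, *Sbsn*, *Krtdap* and *Tgm1*). All 34 had a row in the counts, and 27 of them were expressed above the filter that decided which genes were tested.

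A stratified squamous epithelium, as in skin, esophagus or vagina, grows from a basal layer whose cells carry the transcription factor TRP63, the keratin pair KRT5 and KRT14, and the integrin ITGB4, which anchors them to the basement membrane. Cells that leave the basal layer change their keratins, are tied together by desmosomes and build a protein envelope under transcription factors such as GRHL3, ZNF750 (the human counterpart of the product of *Zfp750*) and OVOL1. The uterus normally has a simple columnar epithelium marked by KRT8, KRT18 and KRT19. Desmosomes and several of the genes listed here also belong to simple epithelia, so the list as a whole does not identify a stratified layer.

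The uteri came from 8 mice at postnatal day (PD) 10, and each mouse gave 1 library. Controls (4 mice) were *Ezh2* f/f, with both alleles floxed, and had no Cre. The 4 *Ezh2 Amhr2*-Cre cKO mice had those alleles together with Cre driven by *Amhr2*, which is active in mesenchyme-derived cells of the female tract, including ovary and oviduct, and not in the uterine epithelium. All mice were kept on a mixed C57BL/6 and 129SvEv background. *Ezh2*, the catalytic subunit of the repressive PRC2 complex and the targeted gene, stood at 49.5, 40.5, 54.7 and 35.4 CPM (counts scaled to library size, with the TMM factors of edgeR) in controls 1 to 4 and at 30.4, 38.0, 40.7 and 38.0 CPM in cKO mice 1 to 4. The libraries of the genotypes overlapped, and the log2 fold change of cKO over control was -0.29 (standard error, SE, 0.13, adjusted p = 0.247 in edgeR's quasi-likelihood F test with Benjamini-Hochberg adjustment). The counts cover the whole gene and every cell type of the uterus, those without Cre included.

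Library totals ran from 25287141 to 36685807 counts, at which 3 counts, the upper limit for a gene with no counts, equal 0.0824 to 0.117 CPM. This limit covers counting error only. In bulk tissue such as this, fewer cells of a type and less RNA per cell cannot be told apart.

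Among the 27 genes tested, 3 rose in cKO uteri and 0 fell at an adjusted p-value under 0.05 by edgeR's quasi-likelihood test, where 1 lower gene (*Dsc2*) had an unadjusted p under 0.05 and DESeq2 called 0 lower. All 3 belong to the differentiation class: the transcription factor genes *Grhl3* and *Zfp750*, and *Sprr1a*, which encodes a small proline-rich protein of the cornified envelope. Over all 16658 genes tested, 5.34% passed this threshold, 2.62% in the higher direction and 2.71% in the lower, while 3 of 27 is 11.1%. Only *Zfp750* also passed the 2-fold rule that defines differentially expressed (DE) genes in this study. The background for that rule was 1.3% of all genes tested, with 0.666% higher in cKO.

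Most values that did not pass were on the higher side too. The log2 fold change was above 0 for 21 of the 27 genes and below 0 for 6, with a median of 0.32, whereas the median over all genes tested was 0.00044 and 8350 of those 16658 lay above 0. An unadjusted p under 0.05 was reached by 15 of the 27, 14 of them higher in cKO, against 21.2% of all genes in either direction and 11.4% in the higher direction. In 8 of the 27 the 4 cKO libraries all exceeded the 4 control libraries, and in 0 they all lay below, where all genes tested gave 12.3% without overlap in either direction and 5.9% with cKO higher. These 8 were *Krt15* of the basal class, *Pkp1*, *Perp* and *Lgals7* of the junction class, and *Grhl3*, *Zfp750*, *Ovol1* and *Sprr1a* of the differentiation class.

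**Figure D1:**
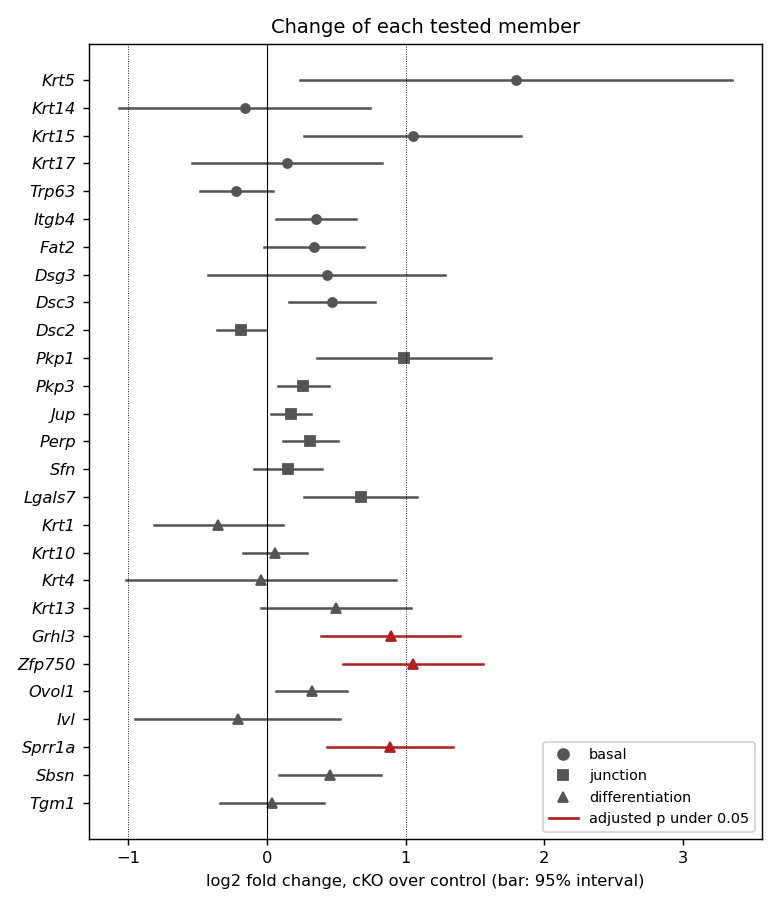
The log2 fold change of cKO over control is drawn for each of the 27 tested genes with its 95% interval, in the order basal, junction and differentiation, with dotted lines at a 2-fold change either way. The 3 red genes (*Grhl3*, *Zfp750* and *Sprr1a*) had an adjusted p under 0.05, and *Krt5* had the widest interval, from 0.24 to 3.35.

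*Grhl3* encodes a grainyhead-like factor needed for the epidermal barrier. It stood at 4.45, 3.40, 7.49 and 7.30 CPM in controls 1 to 4 and at 11.8, 9.17, 12.0 and 9.28 CPM in cKO mice 1 to 4. Controls 1 and 2 were the low ones, and every cKO library lay above every control. The mean went from 5.66 ± 2.05 CPM in controls to 10.6 ± 1.55 CPM in cKO (SD over 4 mice each), a 1.86-fold rise with a 95% interval of 1.31 to 2.63. The log2 fold change was 0.89 (SE 0.23, adjusted p = 0.0468 in edgeR's quasi-likelihood F test with Benjamini-Hochberg adjustment), just inside the threshold. Without control 1, cKO 1, cKO 2 or cKO 3 the adjusted p of *Grhl3* by the same edgeR test became 0.140, 0.122, 0.0783 and 0.126, and without the filter on low counts it became 0.0665.

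*Zfp750* encodes a zinc finger factor that acts in the terminal differentiation of keratinocytes. Its level was 1.67, 1.43, 2.60 and 2.33 CPM in controls 1 to 4 and 4.47, 2.91, 5.58 and 3.78 CPM in cKO mice 1 to 4. The groups did not overlap, although control 3 at 2.60 CPM and cKO 2 at 2.91 CPM stood close. The means were 2.01 ± 0.550 CPM in controls and 4.18 ± 1.12 CPM in cKO (SD over 4 mice each), a 2.07-fold rise with a 95% interval of 1.46 to 2.95. On the log2 scale this is 1.05 (SE 0.23, adjusted p = 0.0215 in edgeR's quasi-likelihood F test with Benjamini-Hochberg adjustment). Without control 1, cKO 1 or cKO 3 the adjusted p of *Zfp750* by the edgeR test was 0.0809, 0.0657 and 0.0727.

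*Sprr1a* stood at 1.48, 1.82, 2.68 and 2.47 CPM in controls 1 to 4 and at 4.19, 3.05, 3.70 and 4.76 CPM in cKO mice 1 to 4. As with the other 2, the lowest cKO library was cKO 2, and it still exceeded the highest control. The means were 2.11 ± 0.557 CPM and 3.92 ± 0.731 CPM (SD over 4 mice each), a 1.85-fold rise with a 95% interval of 1.35 to 2.54. On the log2 scale it was 0.89 (SE 0.21, adjusted p = 0.0284 in edgeR's quasi-likelihood F test with Benjamini-Hochberg adjustment). Without control 1, cKO 1 or cKO 3 the adjusted p of *Sprr1a* by the edgeR test was 0.0926, 0.0817 and 0.0620, so that with any of these 3 libraries left out, 0 of the 27 genes passed. The direction of all 3 genes stayed the same without each library in turn, with the smallest log2 fold change at 0.72 for *Grhl3*, 0.87 for *Zfp750* and 0.75 for *Sprr1a*.

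**Figure D2:**
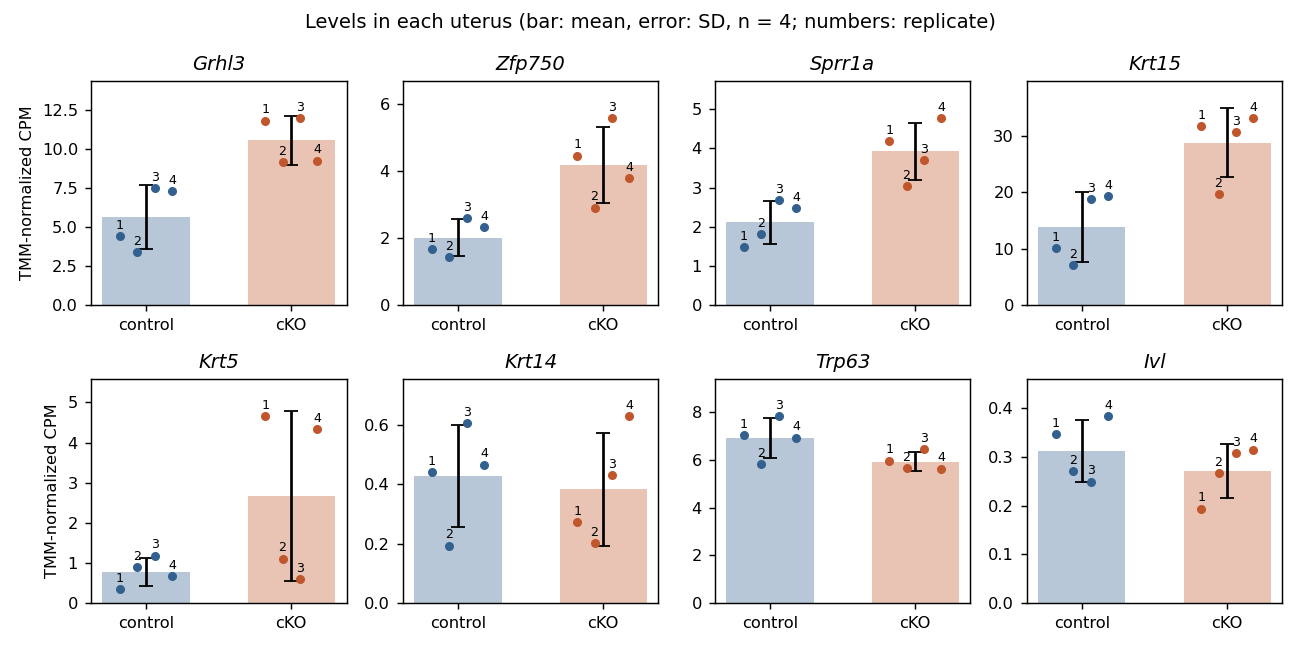
TMM-normalized CPM of 8 genes is plotted for each uterus on linear axes that start at 0, with bars for the mean, error bars for the SD (n = 4) and a replicate number beside each point. *Grhl3*, *Zfp750*, *Sprr1a* and *Krt15* show cKO points above every control point, while *Krt5*, *Krt14*, *Trp63* and *Ivl* overlap.

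The third transcription factor of the class, *Ovol1*, whose product restrains proliferation as epidermal cells differentiate, stood at 5.34 to 7.03 CPM in controls and at 7.53 to 7.92 CPM in cKO uteri. The groups did not overlap, but the log2 fold change of 0.32 (95% interval 0.068 to 0.58) had an adjusted p of 0.134 in edgeR's quasi-likelihood F test and did not pass. *Sbsn*, which encodes the secreted keratinocyte protein suprabasin, ran from 3.25 to 3.60 CPM in controls and from 3.43 to 6.14 CPM in cKO uteri, with cKO 4 inside the control range and a log2 fold change of 0.45 (adjusted p = 0.148 by the edgeR test). *Sbsn* shares 6.96% of its stretches of 50 bases with the transcripts of another gene, *Tmem147os*, so its counts are uncertain to that extent.

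*Ivl* and *Tgm1*, the other envelope genes of the list that were tested, did not pass. *Ivl* (involucrin) stood at 0.347, 0.271, 0.250 and 0.384 CPM in controls 1 to 4 and at 0.194, 0.268, 0.308 and 0.315 CPM in cKO mice 1 to 4. The groups overlapped in part, with controls 1 and 4 above every cKO library and cKO 1 below every control, and the fold change of 0.864 had a 95% interval of 0.518 to 1.44, which leaves room for a change in either direction at this depth. *Tgm1*, the transglutaminase that cross-links the envelope, averaged 1.81 ± 0.127 CPM in controls and 1.87 ± 0.246 CPM in cKO uteri (SD over 4 mice each), with a 95% interval of the fold from 0.789 to 1.33.

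Promoter sequences were available from RefSeq (GRCm38.p6) for 16 of the 34 genes, in 18 windows that run from 250 bases before to 50 bases after a transcription start. Of the genes that rose, *Grhl3* and *Sprr1a* had a window, and the window of *Ivl* is shown beside them because *Ivl* is an envelope gene near *Sprr1a* on chromosome 3 that did not pass the test. The windows are *Grhl3* at chr4:135573583-135573882, *Sprr1a* at chr3:92485832-92486131 and *Ivl* at chr3:92573686-92573985, all on the minus strand and written from 5′ to 3′ along the gene. Capitals mark matches to a TATA box (TATAAA) and to the AP-1 motif (TGANTCA), searched on both strands.
Grhl3: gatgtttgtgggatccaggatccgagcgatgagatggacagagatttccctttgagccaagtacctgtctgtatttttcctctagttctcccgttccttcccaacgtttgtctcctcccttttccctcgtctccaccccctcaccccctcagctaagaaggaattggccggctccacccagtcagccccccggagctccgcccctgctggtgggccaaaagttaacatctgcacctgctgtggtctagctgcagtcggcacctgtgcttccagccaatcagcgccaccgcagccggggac
Sprr1a: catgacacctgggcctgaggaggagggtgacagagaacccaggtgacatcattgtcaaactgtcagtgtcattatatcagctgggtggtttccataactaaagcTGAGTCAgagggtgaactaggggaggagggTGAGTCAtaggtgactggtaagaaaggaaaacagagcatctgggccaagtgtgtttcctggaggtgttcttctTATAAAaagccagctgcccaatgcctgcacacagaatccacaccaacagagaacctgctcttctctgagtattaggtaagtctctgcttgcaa
Ivl: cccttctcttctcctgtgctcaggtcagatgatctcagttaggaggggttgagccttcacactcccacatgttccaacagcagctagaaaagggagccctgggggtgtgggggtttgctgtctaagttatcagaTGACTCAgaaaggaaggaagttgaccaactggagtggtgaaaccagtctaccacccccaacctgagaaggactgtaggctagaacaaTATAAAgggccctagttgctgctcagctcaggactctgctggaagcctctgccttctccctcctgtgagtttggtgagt
The *Sprr1a* window held the AP-1 letters at 2 places, beginning 146 and 116 bases before the start, and a TATA box beginning 43 bases before it. The *Ivl* window had the AP-1 letters once, beginning 116 bases before the start, and a TATA box beginning 29 bases before it. The *Grhl3* window had neither motif and held 12 CpG dinucleotides, where the windows of *Sprr1a* and *Ivl* had 0. *Sprr1a* and *Ivl* thus held the same pair of motifs, and of these genes *Sprr1a* passed the test and *Ivl* did not.

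Over the 18 windows, 7 (38.9%) held the AP-1 letters, compared with 7.81% of 32851 RefSeq windows of the same length, and 5 (27.8%) held a TATA box, compared with 13.6%. The letters AACNGGTT, a form of the grainyhead motif, were in 1 window (5.56%, against 2.09% of all), and GCCNNNGGC, a form of the AP-2 motif, was in 0 (against 16.6% of all). The ratio of observed to predicted CpG had a median of 0.263 in the 18 windows and of 0.384 in all, and 0 of the 18 passed 0.6, a usual limit for CpG-rich promoters, which 11756 of the 32851 passed. These are counts of letters in sequence and say nothing of which factor binds.

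Of the basal class, 9 of 10 genes were tested and 0 passed the adjusted threshold by edgeR's quasi-likelihood test. At an unadjusted p under 0.05 there were 4, all higher in cKO (*Krt5*, *Krt15*, *Itgb4* and *Dsc3*), and DESeq2 called 1 (*Dsc3*). The median log2 fold change of the class was 0.35, with 7 above 0 and 2 below.

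*Trp63*, the master regulator of the basal layer, stood at 7.07, 5.84, 7.85 and 6.95 CPM in controls 1 to 4 and at 5.98, 5.66, 6.47 and 5.64 CPM in cKO mice 1 to 4. The cKO libraries lay in or just under the lower part of the control range, and the log2 fold change was -0.22 (SE 0.12, adjusted p = 0.312 in edgeR's quasi-likelihood F test). Its 95% interval in fold, 0.715 to 1.03, contains no rise above 1.03-fold.

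*Krt5*, the type II keratin of basal cells, was at 0.347, 0.890, 1.18 and 0.659 CPM in controls 1 to 4 and at 4.66, 1.10, 0.585 and 4.34 CPM in cKO mice 1 to 4. Only cKO 1 and cKO 4 were above the controls, while cKO 2 and cKO 3 lay within the control range. The resulting log2 fold change of 1.80 carried an SE of 0.68 and an adjusted p of 0.177 in edgeR's quasi-likelihood F test. *Krt14*, its type I partner, was at 0.442, 0.193, 0.606 and 0.467 CPM in controls 1 to 4 and at 0.272, 0.201, 0.431 and 0.630 CPM in cKO mice 1 to 4. Of the 2 libraries high in *Krt5*, cKO 4 had the highest *Krt14* of all 8 and cKO 1 lay within the control range, and the *Krt14* fold of 0.893 had a 95% interval of 0.477 to 1.67. Part of the *Krt14* transcript (13.9% of its stretches of 50 bases) is identical to other transcripts, mainly *Krt16*, so reads from it could be lost or shared. For *Krt5* this part was 8.52%, mainly shared with *Krt6a*.

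*Krt15*, a type I keratin of basal cells and of stem cell niches in skin and esophagus, had the highest level per exon length among the keratins listed. In CPM it stood at 10.1, 7.04, 18.8 and 19.3 CPM in controls 1 to 4 and at 31.7, 19.7, 30.6 and 33.1 CPM in cKO mice 1 to 4. The groups did not overlap, but cKO 2 exceeded control 4 by little, and controls 1 and 2 lay well under controls 3 and 4. With means of 13.8 ± 6.18 CPM and 28.8 ± 6.12 CPM (SD over 4 mice each), the log2 fold change was 1.05 (SE 0.34, adjusted p = 0.126 in edgeR's quasi-likelihood F test with Benjamini-Hochberg adjustment), which did not pass. With robust = FALSE in the same edgeR fit the adjusted p of *Krt15* was 0.0461, and DESeq2 gave 0.0523.

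*Itgb4*, the beta subunit of the hemidesmosome integrin, stood at 40.8, 57.6, 39.5 and 40.5 CPM in controls 1 to 4 and at 68.0, 55.4, 53.7 and 50.6 CPM in cKO mice 1 to 4. Control 2 was the only control among the cKO values. Its log2 fold change was 0.35 (SE 0.13, adjusted p = 0.148 in edgeR's quasi-likelihood F test), and without control 2 it was 0.50 with an adjusted p of 0.00666 by the same test. The desmosomal cadherin gene *Dsc3* ran from 4.21 to 5.92 CPM in controls and from 5.57 to 7.33 CPM in cKO uteri, with a log2 fold change of 0.47 (adjusted p = 0.0778 by the edgeR test). *Krt17*, a keratin of hair follicles and stressed epithelium, averaged 6.40 ± 2.84 CPM and 7.11 ± 1.64 CPM (SD over 4 mice each) in controls and cKO uteri. The giant cadherin gene *Fat2* averaged 4.45 ± 0.948 and 5.65 ± 0.891 CPM, and *Dsg3*, the basal desmoglein gene, 0.308 ± 0.144 and 0.409 ± 0.118 CPM. *Serpinb5* had 43 counts over the 8 libraries and was not tested.

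All 7 genes of the junction class were tested and 0 passed by edgeR's quasi-likelihood test. At an unadjusted p under 0.05 there were 6, of which 5 were higher in cKO, and DESeq2 called 4 (*Lgals7*, *Perp*, *Pkp1* and *Pkp3*). The median log2 fold change of the class was 0.26, with values from -0.19 (*Dsc2*) to 0.99 (*Pkp1*).

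*Jup* (plakoglobin, which links desmosomal and classical cadherins to the cytoskeleton) stood at 142.7, 156.1, 138.7 and 147.8 CPM in controls 1 to 4 and at 178.6, 149.0, 173.0 and 158.1 CPM in cKO mice 1 to 4. Only cKO 2 fell inside the control range, and the 1.13-fold difference (95% interval 1.02 to 1.24) had an adjusted p of 0.164 in edgeR's quasi-likelihood F test. *Perp*, a tetraspan desmosome protein gene that TRP63 activates, stood at 37.2, 44.3, 44.2 and 44.2 CPM in controls 1 to 4 and at 49.7, 45.8, 53.3 and 61.9 CPM in cKO mice 1 to 4. The groups of *Perp* did not overlap, with a 1.24-fold difference (adjusted p = 0.0718 by the edgeR test). *Pkp3* (plakophilin 3, a desmosomal plaque protein) stood at 19.1, 20.1, 22.0 and 22.0 CPM in controls 1 to 4 and at 27.1, 21.8, 25.6 and 25.4 CPM in cKO mice 1 to 4, where only cKO 2 fell within the controls, with a log2 fold change of 0.26 (adjusted p = 0.0931 by the edgeR test).

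*Dsc2* (desmocollin 2) was the one junction gene with a log2 fold change below 0. It stood at 21.6, 21.0, 21.2 and 19.1 CPM in controls 1 to 4 and at 19.9, 16.7, 18.7 and 17.5 CPM in cKO mice 1 to 4, so that only control 4 overlapped the cKO range. Its log2 fold change was -0.19 (SE 0.08, adjusted p = 0.203 in edgeR's quasi-likelihood F test). *Sfn* (stratifin, the 14-3-3 sigma protein) stood at 10.2, 9.55, 11.2 and 11.0 CPM in controls 1 to 4 and at 11.9, 9.30, 12.5 and 12.9 CPM in cKO mice 1 to 4. Here cKO 2 was the lowest of all 8 libraries, and the log2 fold change of 0.15 had a 95% interval of -0.097 to 0.40. *Sfn* shares 15% of its stretches of 50 bases with other transcripts, mainly *Gm7850*, so its counts are uncertain to that extent. *Pkp1* (plakophilin 1) and *Lgals7* (galectin 7) had log2 fold changes of 0.99 (adjusted p = 0.0704) and 0.68 (adjusted p = 0.0578) by the edgeR test, and neither overlapped between genotypes.

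Keratins that mark particular stratified surfaces were low and did not pass. *Krt13*, of esophagus and other wet mucosae, stood at 1.77, 0.967, 1.28 and 1.98 CPM in controls 1 to 4 and at 2.37, 1.61, 1.88 and 2.73 CPM in cKO mice 1 to 4, with overlap and a log2 fold change of 0.50 (SE 0.25, adjusted p = 0.273 in edgeR's quasi-likelihood F test). Its type II partner *Krt4* was at 0.599, 0.232, 0.214 and 0.467 CPM in controls 1 to 4 and at 0.155, 0.301, 0.400 and 0.630 CPM in cKO mice 1 to 4. These values spread about equally in both genotypes, and the fold of 0.969 had a 95% interval of 0.494 to 1.90.

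*Krt10*, a keratin of cells above the basal layer in skin, was even across the uteri, at 6.28, 6.58, 6.78 and 6.31 CPM in controls 1 to 4 and at 6.17, 6.63, 7.33 and 6.87 CPM in cKO mice 1 to 4. The libraries overlapped, and the 95% interval of the fold was 0.888 to 1.22. *Krt1*, its type II partner, averaged 1.54 ± 0.316 CPM in controls and 1.19 ± 0.152 CPM in cKO uteri (SD over 4 mice each), with a log2 fold change of -0.35 (adjusted p = 0.374 by the edgeR test). The keratins of wounded and hyperproliferative epidermis were at or near 0. *Krt6a* and *Krt6b* had 0 counts in all 8 libraries, as did the desmoglein gene *Dsg1a*, and *Krt16* had 2 counts in all. Such a count leaves room for up to 0.117 CPM in the shallowest library. *Krt6a*, *Krt6b*, *Krt16* and *Dsg1a* share 45.7%, 50.1%, 37.6% and 35% of their stretches of 50 bases with other transcripts, so a count of 0 could also come from reads that map to several genes, whose treatment is not given in the sources used here. *Krtdap* had 22 counts and *Sprr3* 37 over the 8 libraries, and both were under the filter.

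**Figure D3:**
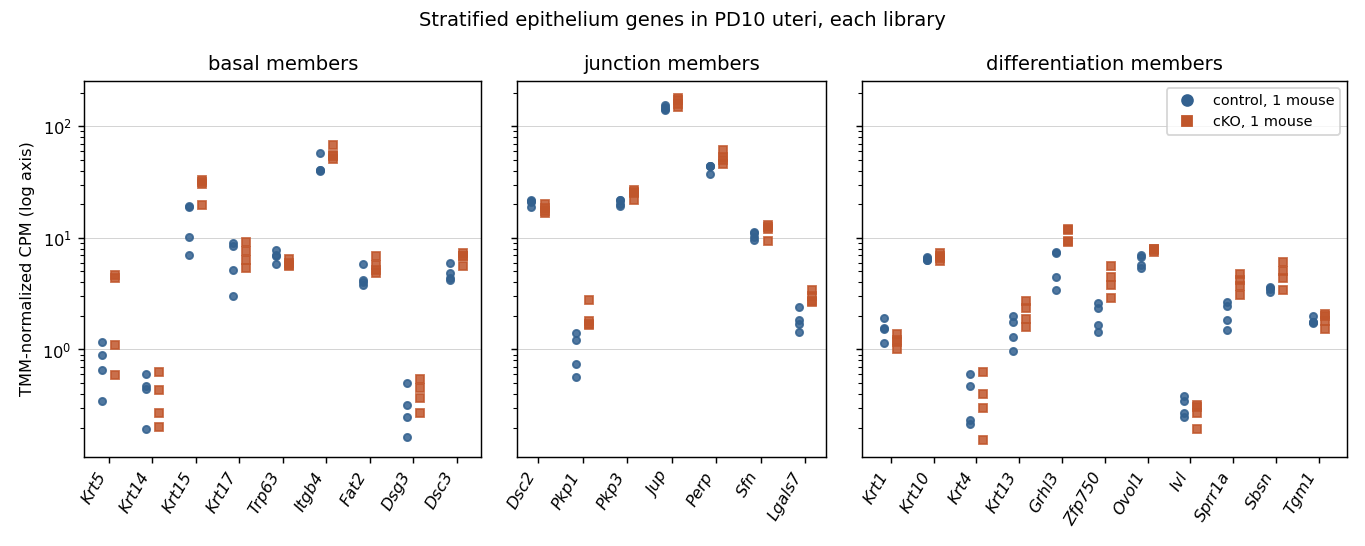
TMM-normalized CPM is plotted on a log axis for each tested gene, with 1 point per mouse (circles for control, squares for cKO), by class. Levels span from under 0.2 CPM (*Dsg3* and *Krt4*) to 178.6 CPM (*Jup*) on this scale, which is not divided by exon length, and most pairs of groups overlap.

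Levels were compared between genes after division by exon length, taken as the joined length of all annotated exons of a gene. A gene with many annotated transcripts can be understated on this scale. In control uteri *Jup* (22.7 ± 1.17 CPM per kb of exon, SD, n = 4) and *Perp* (21.7 ± 1.80) led the list and did not differ beyond their spread. Next came *Krt15* (7.82 ± 3.50), *Sfn* (6.51 ± 0.473), *Itgb4* (6.36 ± 1.24) and *Pkp3* (5.75 ± 0.397), which stood close together, with *Krt15* the most variable. *Krt17* (4.13 ± 1.83), *Dsc2* (3.93 ± 0.215), *Krt10* (3.07 ± 0.112), *Sprr1a* (2.62 ± 0.690), *Grhl3* (2.03 ± 0.735) and *Lgals7* (1.99 ± 0.453) followed, all in CPM per kb, and *Dsg3* was lowest of the tested genes at 0.0442 ± 0.0206. In cKO uteri *Krt15* reached 16.3 ± 3.46 CPM per kb, apart from *Itgb4* at 8.12 ± 1.09.

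Among keratins of simple epithelium, *Krt8*, *Krt18* and *Krt19* stood at 196, 121 and 142 CPM per kb in control uteri, above every keratin of the list. *Krt7* stood at 8.04 CPM per kb, but over a joined exon length of 7049 bases, compared with 1767 for *Krt15*. Its level may be understated, so *Krt7* is not ranked against *Krt15*. The type II keratin *Krt5* reached 0.350 ± 0.160 CPM per kb in controls and 1.22 ± 0.968 in cKO, and *Krt14* 0.243 ± 0.0977 and 0.218 ± 0.108 (SD over 4 mice each). The mean levels of both were below that of *Krt15* in each genotype.

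**Figure D4:**
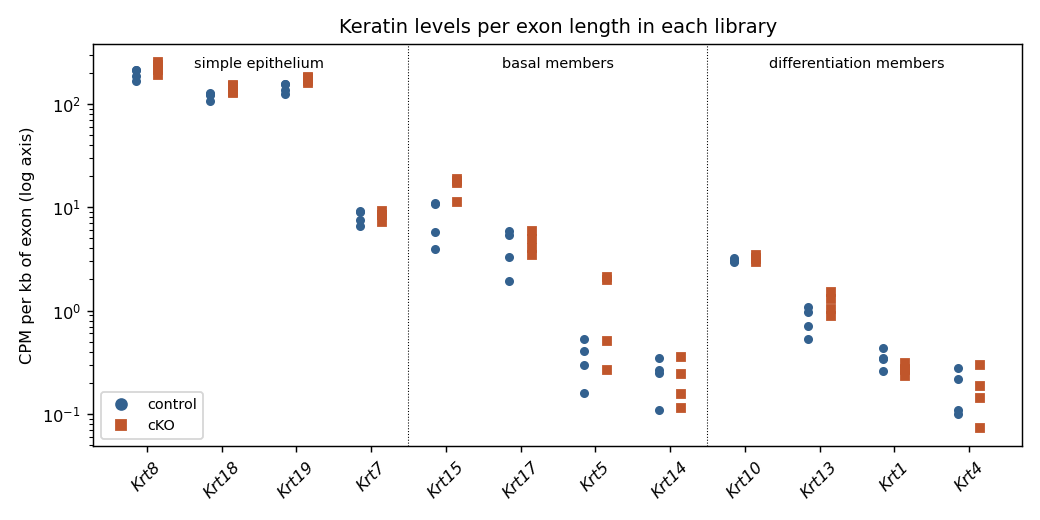
CPM per kb of exon on a log axis is shown for 4 keratins of simple epithelium, 4 basal and 4 differentiation keratins, with circles for control and squares for cKO libraries. *Krt8*, *Krt18* and *Krt19* sit at or above 107.5 in every library, whereas *Krt5*, *Krt14*, *Krt1* and *Krt4* lie near or under 1, apart from *Krt5* in cKO 1 and cKO 4.

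Summed over a class, levels were higher in cKO uteri on average, and single genes weighed heavily in these sums. The basal sum was 82.7 ± 6.51 CPM in controls and 114.8 ± 12.7 CPM in cKO uteri (SD over 4 mice each), with *Itgb4* contributing 51.4% of it. The junction sum was 243.7 ± 8.24 and 277.1 ± 20.6 CPM, with *Jup* contributing 59.7%. The differentiation sum was 31.7 ± 4.32 and 44.1 ± 3.55 CPM, ranging from 27.1 to 35.8 in controls and from 40.0 to 47.1 in cKO uteri, and without *Grhl3* the means were 26.0 and 33.5 CPM. The basal sum did not overlap between genotypes either (73.1 to 87.5 against 99.7 to 130.6 CPM), but without *Itgb4* it did (27.3 to 47.0 against 44.3 to 62.6 CPM), as did the junction sum (234.1 to 253.2 against 247.3 to 292.7 CPM).

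Libraries of one genotype were not alike. Over the 27 tested genes the highest of the 8 values was in cKO 1 for 9 genes, in cKO 3 and cKO 4 for 7 each and in cKO 2 for 0, and in a control for 4. Within the cKO group, cKO 2 had the lowest value for 16 of the 27 genes. Within the controls, control 2 had the lowest value for 12 of 27. Control 2 was the lowest control in markers of the mesothelium that covers the uterus as well, with *Upk3b* at 31.2 CPM against 58.2, 78.7 and 80.7 in controls 1, 3 and 4. Its part in the results was not tested further, but without control 2 the edgeR test called 5 of the 27 genes (*Dsc3*, *Grhl3*, *Itgb4*, *Sprr1a* and *Zfp750*).

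**Figure D5:**
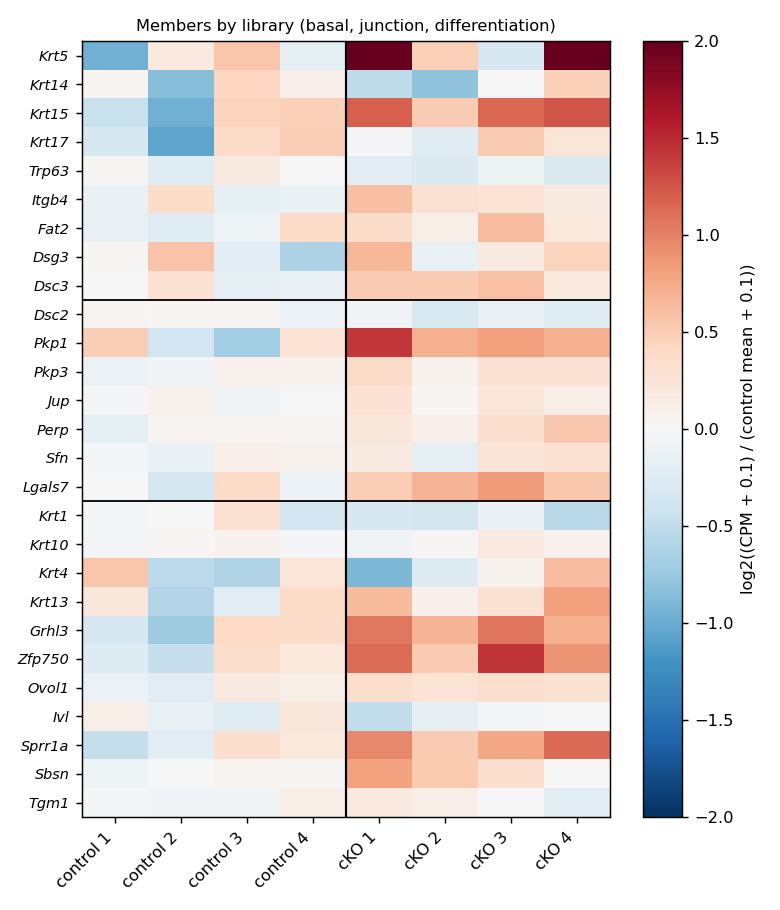
Each cell gives the log2 ratio of a gene in 1 library to the mean of the controls, after adding 0.1 CPM to both, with red above and blue below the control mean and horizontal lines between the classes. Red fills most of the cKO columns, least so for cKO 2, and *Trp63*, *Dsc2* and *Krt1* lie below the control mean in every cKO library. *Krt14*, *Krt4* and *Ivl*, whose log2 fold changes were also below 0, lie on both sides of it.

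Genes of simple epithelium were read in the same libraries. Of 23 such genes tested, 0 rose and 1 fell (*Prom1*, which encodes the apical membrane protein prominin 1, from 92.4 ± 6.49 to 68.4 ± 5.46 CPM, SD over 4 mice each, adjusted p = 0.00361 in edgeR's quasi-likelihood F test). Their median log2 fold change was 0.10, with 20 above 0, and 7 had an unadjusted p under 0.05, 6 of them higher in cKO, while DESeq2 called 3. Their summed level was 2248 to 2628 CPM in controls, lowest in control 2, and 2383 to 2926 CPM in cKO uteri. As a share of that sum, the differentiation class went from 1.21% to 1.36% in controls to 1.45% to 1.82% in cKO uteri, and the basal class from 3.19% to 3.78% to 3.87% to 5.04%, both without overlap. The differentiation share includes the called genes *Grhl3*, *Zfp750* and *Sprr1a*, and the basal share includes *Itgb4* and *Krt15*. Neither share was computed without these genes, so the lack of overlap does not show a rise across a class. The junction class overlapped on this scale, at 9.15% to 11.3% and 9.58% to 11.3%.

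Other genes of the basal layer, of epithelial regulation and of the cornified envelope gave few calls. Among 16 genes of hemidesmosomes, laminins and basal adhesion, 1 rose: *Lama5*, a laminin chain of many basement membranes, stood at 176.2, 236.0, 200.7 and 209.8 CPM in controls 1 to 4 and at 318.2, 298.7, 278.3 and 241.7 CPM in cKO mice 1 to 4, without overlap (log2 fold change 0.47, SE 0.10, adjusted p = 0.0177 in edgeR's quasi-likelihood F test). The call was lost without cKO 1 or cKO 2, when 0 of the 16 passed. *Itga6*, whose product pairs with ITGB4, was at 102.2 ± 6.38 CPM in controls and 93.7 ± 7.17 CPM in cKO uteri (SD over 4 mice each) and did not pass.

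Of 20 other transcription factors and regulators of epithelium, 17 were tested. The grainyhead relatives did not pass, with *Grhl1* at a log2 fold change of 0.45 (adjusted p = 0.217) and *Grhl2* at -0.045 (adjusted p = 0.839) by the edgeR test.

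Of 46 other cornified envelope and epidermal genes, 20 were tested and 2 rose, both by little. *Evpl* (envoplakin, which links desmosomes to the envelope) ran from 28.9 to 30.1 CPM in controls and from 33.8 to 38.8 CPM in cKO uteri (log2 fold change 0.26, adjusted p = 0.0363 in edgeR's quasi-likelihood F test). *Krt80*, a keratin near desmosomes, ran from 17.3 to 19.6 and from 20.7 to 24.4 CPM (log2 fold change 0.31, adjusted p = 0.0381 by the edgeR test). Neither passed without control 1, cKO 1 or cKO 3, and only 1 gene of the 20 passed without control 2, control 3, control 4 or cKO 2. The remaining 26 genes were under the filter, and 8 of the 46 had no count in any library, while *Flg*, which encodes filaggrin of the granular layer, had 1 count in all. *Lor* (loricrin) ran from 0.789 to 1.24 CPM in controls and from 0.435 to 1.05 CPM in cKO uteri.

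Markers of other cell types and tissues were counted as well. Of 16 hair follicle and pigment cell genes, 2 were tested, 0 were called by edgeR's quasi-likelihood test, 1 had an unadjusted p under 0.05, and 6 were at 0 in every library. The summed level of these 16 was 32.4 to 63.5 CPM in controls and 60.9 to 76.7 CPM in cKO uteri. Of 8 mesothelial genes, 0 were called and 1 (*Krt19*, shared with simple epithelium) had an unadjusted p under 0.05, with a summed level of 474.7 to 636.5 CPM in controls and 623.9 to 660.7 CPM in cKO uteri. Of 8 urothelial genes tested, 1 rose (*Pparg*, a lipid and urothelial regulator also made by fat cells, log2 fold change 1.63, adjusted p = 0.0418 by the edgeR test). By the same test 4 of the 8 were higher in cKO at an unadjusted p under 0.05, and in 3 every cKO library exceeded every control. Their median log2 fold change was 0.85. The summed level of the urothelial list was 19.2 to 29.6 CPM in controls and 29.8 to 38.4 CPM in cKO uteri, and *Foxa1* was at 0 in every library. The part of urothelial or hair follicle RNA in the results was not tested.

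Fat markers were high in 3 of the 4 cKO libraries, with 1 of 8 tested past the adjusted threshold, 8 of 8 higher at an unadjusted p under 0.05, 3 without overlap between genotypes and a median log2 fold change of 5.32. *Fabp4*, the fatty acid carrier of fat cells, stood at 39.0, 106.7 and 45.3 CPM in cKO mice 1 to 3 and at 1.61 CPM in cKO 4, compared with at most 1.43 CPM in controls. The summed fat list was 102.2 to 112.8 CPM in controls and 115.6 to 440.4 CPM in cKO uteri. In cKO 4, *Fabp4* was near the control level, while *Grhl3* (9.28 CPM), *Zfp750* (3.78 CPM), *Sprr1a* (4.76 CPM) and *Krt15* (33.1 CPM) were above every control. These belong to the genes whose cKO libraries all exceeded the controls, so their place in cKO 4 was given beforehand and tells nothing of fat. Over the 27 tested genes, cKO 4 held the highest of the 8 values for 7 and the lowest for 3. The part of fat RNA in the results was not tested. Of 7 skeletal muscle genes tested, 2 rose, 5 were higher at an unadjusted p under 0.05, 4 did not overlap between genotypes and the median log2 fold change was 0.82, with a summed level of 54.7 to 90.7 CPM in controls and 52.6 to 77.4 CPM in cKO uteri. Of 11 stromal genes 3 fell, and of 7 smooth muscle genes 0 were called by the edgeR test, with 2 at an unadjusted p under 0.05.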

How the data were processed

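RNA-seq libraries (stranded mRNA, 1 per mouse) were made from whole uteri. The authors trimmed reads with Trimmomatic, checked them with FastQC, aligned them to GRCm38 with HISAT2 and deposited raw counts per Entrez gene from featureCounts. The annotation release, strand setting and treatment of reads mapping to several genes are not given in the sources used here. Their other tables hold their edgeR comparison and normalized values. From these only gene symbols were taken, which named 25440 of 27179 genes.

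From the counts, genes over 0.2 CPM in 4 or more libraries entered the test in R 4.3.3 with edgeR 4.0.16 (TMM, glmQLFit with robust = TRUE, glmQLFTest, prior count 0.125), and p-values were adjusted by Benjamini-Hochberg over 16658 genes. DE genes have an adjusted p under 0.05 and a fold over 2. The SE is the size of the log2 fold change divided by the square root of F. Alternatives used DESeq2 1.42.0, other scalings, filters and prior counts, a replicate block, and each library left out. The script was tested on simulated counts. Exon lengths came from GENCODE M21, and sequences from RefSeq.

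The genes and lists were chosen with earlier results of these data known. Given in full are genes with an adjusted p under 0.05, those with a mean of at least 10 CPM in a genotype, and *Trp63*, *Krt5*, *Krt14*, *Krt15*, *Krt13*, *Krt4*, *Krt10* and *Ivl*. From other lists, genes with an adjusted p under 0.05 (at most 6 a list) are named for epithelial lists. *Itga6*, *Grhl1*, *Grhl2*, *Flg*, *Lor*, *Upk3b*, *Fabp4* and the simple keratins were named after their values were seen. The labels give no batch. A result for 1 epithelial regulator is not reported here.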

Additional observations from a re-analysis of the deposited data

Results flagged for a closer look

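In 56 groups of 4 libraries (27 genes and *Ezh2*, in both genotypes), 4 had a library far from the rest, where chance alone gives about 1 in 20 groups. The count is near that rate, so these are values to check and not results. *Itgb4* in control 2 was at 57.6 CPM, with the nearest other control at 40.8 CPM. *Pkp1* in cKO 1 was at 2.80 CPM, with the nearest cKO library at 1.82 CPM. *Perp* in control 1 was at 37.2 CPM, below the next control at 44.2 CPM. *Tgm1* in control 4 was at 2.00 CPM, above the next control at 1.77 CPM. None of these 4 genes passed the test on all libraries.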

How the results depend on the processing

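The count of 3 genes called among 27 was sensitive to single libraries and to the test. By leaving out each library in turn it ran from 0 (without control 1, cKO 1 or cKO 3) to 6 (without cKO 4), 5 without control 2, those DE from 0 to 3, basal genes from 0 to 2, junction genes from 0 to 1 and differentiation genes from 0 to 4. The same omissions gave 0 to 3 other basal layer genes, 1 to 2 epithelial regulators, 0 to 4 cornified envelope genes, 1 to 2 simple epithelium genes, 425 to 1783 of all genes and 142 to 336 DE genes. DESeq2 called 8 of the 27 and 1510 genes in all, with 326 adjusted p-values not given, and 1 basal, 4 junction, 3 other basal layer, 2 regulator, 4 cornified envelope and 3 simple epithelium genes. With robust = FALSE 4 were called, 1 of them basal, and 2 were DE. A filter of CPM over 1 gave 139 DE genes in all against 217. No setting called a lower gene of the list. The replicate numbers do not pair the mice (deviations of same-numbered libraries correlated at 0.0068, 0.16, -0.19 and 0.35, and 2 of 8 libraries correlated best with their own number). In edgeR with a replicate block 7 of the 27 were called (3 junction and 1 basal, *Krt15*, at an adjusted p of 0.00864), with 3 DE, and 3 other basal layer, 4 cornified envelope and 3 simple epithelium genes. The log2 fold change changed sign only for 4 uncalled genes when a library was left out, from -0.50 to 0.055 for *Krt14*, -0.081 to 0.36 for *Krt17*, -0.40 to 0.25 for *Krt4* and -0.019 to 0.12 for *Tgm1*. The cause was not tested. Genes under 0.117 CPM could not be assessed at this depth.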
